A study of Mus musculus with 4 samples.

Results

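The gene for the transcription factor p53 (*Trp53*), the genes for its inhibitors MDM2 and MDM4 and 7 of its direct targets were examined in late 2C mouse embryos treated with Mdivi-1. These 10 genes, of 26022 in the deposited table, were chosen by name, because the study linked p53 to Mdivi-1 in ESCs. Earlier results of these data were known when they were chosen. All 10 were found in the table by symbol. Control and Mdivi-1-treated embryos both came from ICR mice, an outbred strain, by mating females aged 7 to 8 weeks, superovulated with PMSG and hCG, with ICR males. Zygotes were cultured for 16 h in KSOM medium without (control) or with 200 μM Mdivi-1, a small molecule that inhibits DRP1, the GTPase of mitochondrial fission. Each group held 8 to 10 embryos, whose RNA was amplified by the Smart-Seq2 method. There were 2 libraries of control and 2 of Mdivi-1-treated embryos. A solvent control is not described for the embryos in the sources used here, so that Mdivi-1 and its solvent cannot be told apart.

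In unstressed cells p53 is kept low, since MDM2 marks it for degradation and MDM4 binds it and restrains its transcriptional activity. When p53 is stabilized, by DNA damage for example, it binds response elements made of a pair of half-sites and activates genes that arrest the cell cycle, repair DNA or kill the cell. *Mdm2* is itself a target, which closes a negative feedback loop. *Cdkn1a* (p21) and *Btg2* restrain proliferation, *Zmat3* encodes an RNA-binding zinc finger protein, *Phlda3* encodes an inhibitor of AKT signalling, *Trp53inp1* acts in cell death and autophagy, and *Bbc3* (PUMA) and *Pmaip1* (NOXA) encode BH3-only proteins that promote apoptosis. p53 has also been linked to activation of *Dux* and 2C genes, and the study counts *Pmaip1* among its 2C genes.

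The RefSeq promoter windows (GRCm38.p6, from 250 bases before to 50 bases after an annotated start) show which members carry the letters of a p53 half-site at their start. Windows were found for 7 of the 10 members (*Trp53*, *Mdm2*, *Mdm4*, *Cdkn1a*, *Bbc3*, *Btg2* and *Phlda3*). The 10-base p53 half-site consensus, which reads the same on both strands, was matched with no mismatch in 3 of these 7 genes, and in 9.55% of all genes with a window. The 3 sequences are shown in the direction of transcription with the matched half-sites in capitals, so that the letters p53 is known to prefer can be seen beside the gene.
Cdkn1a, chr17:29090881-29090962, plus strand: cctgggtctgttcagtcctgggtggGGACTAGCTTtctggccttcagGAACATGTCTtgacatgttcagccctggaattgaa
Mdm2, chr10:117710910-117710969, minus strand: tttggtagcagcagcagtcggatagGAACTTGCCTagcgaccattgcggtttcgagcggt
Trp53, chr11:69580259-69580318, plus strand: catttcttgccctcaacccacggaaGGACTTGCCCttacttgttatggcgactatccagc

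The window of *Cdkn1a* held 2 half-sites, and the one nearer to the gene ran from 51 to 42 bases before the upstream start at 29090979. That half-site lay 2841 bases before the second annotated start of *Cdkn1a* at 29093769. Together with the 10 bases that follow it, the half-site forms a 20-base pair of half-sites with 1 mismatch, the form of a full response element.
Cdkn1a pair, chr17:29090928-29090947, plus strand: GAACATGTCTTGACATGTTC
A pair with no spacer and up to 1 mismatch was found in 0.0884% of all 32817 windows, and among the 11 windows of the members only in that of *Cdkn1a*. This pair was searched after the sequence had been seen. The search planned before was for 2 exact half-sites 0 to 13 bases apart. It found them in 1 of the 7 genes (*Cdkn1a*, the 2 half-sites in capitals above), and in 0.0741% of all genes with a window. Half-sites lay 186 to 177 bases before the start of *Mdm2* and 75 to 66 bases before that of *Trp53*. The core letters CATG of the half-site, also the same on both strands and part of some of the half-sites, were in windows of *Cdkn1a* and *Phlda3*, and in 64.8% of all genes with a window. The windows of *Mdm4*, *Bbc3* and *Btg2* held no exact half-site, which says only that these letters were not in these 300 bases. A match describes the letters and not binding.

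Levels are given as CPM, a gene's raw count relative to the total of its library, after TMM normalization, which adjusts the totals for differences in composition. The raw counts summed to between 17712075 and 20077326 in a library, with 14793 to 16311 genes counted. By edgeR's quasi-likelihood test over 14259 genes, 0 genes (0.0%) passed an adjusted p of 0.05, 1179 were higher and 1089 lower at an unadjusted p under 0.05, and DESeq2 called 853. Nothing states that the replicates were separate litters, and p-values then measure only how far these samples spread, which may be technical. All 12 markers of the 2C embryo in the table passed the filter, 11 of them with a positive log2 fold change (median 1.05). Of 15 cumulus and granulosa cell markers, 5 (*Has2*, *Ptx3*, *Inha*, *Amh* and *Pgr*) were at 0 in all libraries, and the summed level of the list was 98.7 to 111 CPM in control libraries and 66.2 to 82.4 CPM with Mdivi-1, mostly of *Nr5a2*, which embryos express too. Without *Nr5a2* the other 14 summed the opposite way, to 7.78 and 16.9 CPM in control and 24.4 and 22.7 CPM in treated embryos. The largest part of these sums in each library was *Tnfaip6*, which overlapped between the groups. It had 6.55 and 10.7 CPM in control and 9.98 and 15.3 CPM in treated embryos. Among the 14, *Star* had 0 and 4 counts in control and 58 and 74 in treated embryos, and *Cyp19a1* had 27 and 7 against 90 and 45. Both *Star* and *Cyp19a1* are of steroid synthesis. *Fshr* went the other way, with 0 and 67 counts against 0 and 11, as did *Foxl2*, with 0 and 11 against 0 and 0. *Lhcgr* (45 counts) and *Ptgs2* (76 counts) were found mainly in Mdivi-1 replicate 1. Of the 5 markers of the full list that passed the filter, 3 were positive and 2 negative by log2 fold change. All single markers here were named after their values were seen. Sperm markers summed to 1.51 to 2.59 CPM against 2.76 to 6.07 CPM with Mdivi-1, with *Tnp2* at 0. *Prm1* was not in the table. Of the 2 that passed the filter, *Prm2* had 42 and 0 counts in control and 113 and 36 in treated embryos. *Odf1* went the other way, with 15 and 19 against 0 and 0. Oviduct and blood markers summed to 405 to 466 CPM in control libraries and 294.5 to 387 CPM with Mdivi-1, with *Hbb-bs* and *Hbb-bt* at 0. *Epcam* alone gave 238 to 398 CPM of the oviduct and blood sums and *Hba-a1* 46.8 to 59.3 CPM. The other 6 markers of that list summed to 9.37 and 11.4 CPM in control and 4.88 and 9.28 CPM in treated embryos. Morula and blastocyst markers summed to 85.8 to 90.8 CPM against 69.0 to 73.5 CPM, with *Cdx2*, *Sox17* and *Elf5* at 0. These sums were mostly of *Gata4* and *Tfap2c*. Of the 6 that passed the filter, 3 were positive and 3 negative by log2 fold change (median 0.26). The log2 fold change was positive for 15 of 20 oocyte and maternal transcripts (median 0.48) and negative for all 78 genes of cytosolic ribosomal proteins (median -0.98). Transcripts of the 13 mitochondrial proteins made up 15.2% and 18.8% of control counts and 15.98% and 14.2% of Mdivi-1 counts. The part of these differences in the values below was not tested. Fewer cells and less RNA per cell cannot be told apart in pooled embryos. *Dnm1l*, which encodes DRP1, had 37.9 and 33.1 CPM in control libraries and 93.7 and 91.3 CPM with Mdivi-1 (log2 fold change 1.38, edgeR adjusted p = 0.153, DESeq2 adjusted p = 0.00971).

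None of the members passed the adjusted threshold in Mdivi-1-treated late 2C embryos, by edgeR or by DESeq2. *Mdm4* and *Btg2* were higher and *Cdkn1a*, *Mdm2* and *Bbc3* were lower in both treated libraries than in both controls, while *Trp53* itself, *Trp53inp1*, *Zmat3* and *Pmaip1* overlapped between the groups. Of the 9 members that passed the filter on low counts, 0 passed DESeq2's adjusted threshold, where 5.98% of all genes tested did. At an unadjusted p under 0.05 by edgeR 1 member was higher (*Btg2*), beside 8.27% of all genes tested, and 0 were lower, beside 7.64%, or 15.9% of all genes in either direction. By DESeq2 *Btg2* was again the 1 member under this threshold, beside 18.1% of all genes. In 2 members (*Mdm4* and *Btg2*) both treated libraries lay above both controls, as in 26.1% of all genes tested, and in 3 (*Mdm2*, *Cdkn1a* and *Bbc3*) both lay below, as in 23.9%. The sign was positive in 4 members and negative in 5, beside 51.3% and 48.7% of all genes, and 2 members (*Bbc3* and *Btg2*) differed by more than 2-fold, beside 34.2%. With 9 members, none of these counts is a result about the members as a set. The median log2 fold change of the 9 members was -0.04, beside 0.03 for all genes tested. *Phlda3* did not pass the filter, and *Bbc3* passed it through its control libraries alone, so that it could be tested only because its controls were higher.

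**Figure D1:**
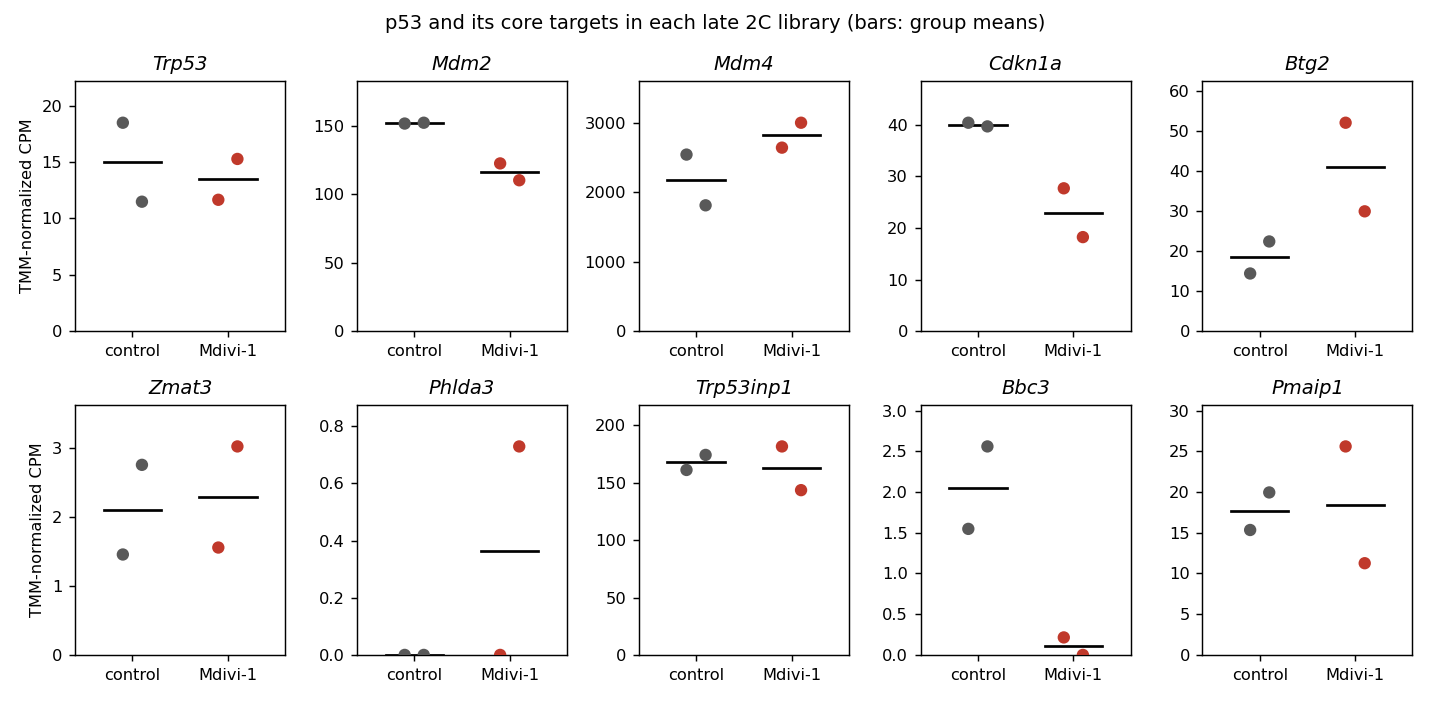
TMM-normalized CPM (y axis, linear, from 0) of each member in each library (points), grey for control and red for Mdivi-1, with bars at the group means. *Btg2* (29.97 and 52.1 CPM treated, 14.4 and 22.4 CPM control) lies higher and *Cdkn1a* (18.2 and 27.7 CPM treated, 39.7 and 40.4 CPM control) lower in both treated libraries.

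*Trp53* (ENSMUSG00000059552, chr11:69580359-69591873 of GRCm38, plus strand), which encodes p53, was moderately expressed. It had 18.5 and 11.5 CPM in control replicates 1 and 2 and 11.7 and 15.3 CPM in Mdivi-1 replicates 1 and 2, from 406, 175, 217 and 293 raw counts. The groups overlapped, since control replicate 1 was the highest and control replicate 2 the lowest of the 4 libraries. The log2 fold change was -0.16 (standard error 0.50), with edgeR adjusted p = 0.932 and DESeq2 adjusted p = 0.949. Its 95% interval ran from -1.33 to 1.02, so that neither a 2-fold higher nor a 2-fold lower level lay outside it. The fold change turned positive when control replicate 1 (0.22) or Mdivi-1 replicate 1 (0.02) was left out, and was -0.48 when control replicate 2 was, so that even its sign rested on single libraries. These counts measure transcripts, and the level of p53 protein, which is set largely by degradation, was not measured.

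Per kb of exon, transcripts of both inhibitors were more abundant than those of p53, and they differed in direction. *Mdm4* (ENSMUSG00000054387, chr1:132959484-133030561, minus strand) had 2545 and 1814 CPM in control and 2645 and 3004 CPM in Mdivi-1-treated embryos, which placed it 30th of 14259 genes by mean CPM. Both treated libraries were above both controls, but control replicate 1 lay close to Mdivi-1 replicate 1. The group means were 2180 ± 517 CPM (SD, n = 2 libraries) and 2825 ± 254 CPM (SD, n = 2), with a log2 fold change of 0.37 (standard error 0.35, with an adjusted p of 0.676 by edgeR and 0.595 by DESeq2). *Mdm2* (ENSMUSG00000020184, chr10:117688875-117710758, minus strand), an E3 ubiquitin ligase, had 152 and 152 CPM in control libraries and 122 and 110 CPM with Mdivi-1. The controls were almost equal and both treated libraries were lower. The log2 fold change was -0.38 (standard error 0.28, 95% interval -1.04 to 0.27), with edgeR adjusted p = 0.571 and DESeq2 adjusted p = 0.586. Per kb of exon, *Mdm4* stood to *Mdm2* at 5.77 and 4.09 in control and 7.42 and 9.36 in treated embryos. The direction of this ratio follows from those of the 2 genes. Against *Trp53*, the length-scaled level of *Mdm4* was 37.7 and 43.2 times as high in the controls and 62.1 and 53.8 times as high in the treated libraries. For *Mdm2* against *Trp53* the ratios were 6.53 and 10.55 in control and 8.37 and 5.74 in treated embryos, which overlapped. These ratios were formed after the values had been seen and were not tested.

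The targets that restrain proliferation differed in direction, and neither passed the adjusted threshold. *Cdkn1a* (ENSMUSG00000023067, chr17:29090976-29100727, plus strand) encodes p21, which blocks cyclin-dependent kinases, and its promoter window holds the pair of half-sites shown above. It had 40.4 and 39.7 CPM in control libraries and 27.7 and 18.2 CPM with Mdivi-1, from 888, 605, 516 and 350 raw counts. The controls were nearly alike, and both treated libraries were lower and further apart from each other. The means of 40.1 ± 0.51 CPM and 22.97 ± 6.68 CPM (SD, n = 2 each) gave a log2 fold change of -0.80 (standard error 0.38, 95% interval -1.69 to 0.09). It did not pass the test, with edgeR unadjusted p = 0.0712 and adjusted p = 0.359, and DESeq2 adjusted p = 0.359. *Btg2* (ENSMUSG00000020423, chr1:134075170-134079120, minus strand) encodes an antiproliferative protein that recruits the CCR4-NOT deadenylase to mRNA. It had 14.4 and 22.4 CPM in control libraries and 52.1 and 29.97 CPM with Mdivi-1, from 317, 342, 971 and 575 raw counts. Both treated libraries were above both controls, with Mdivi-1 replicate 1 well above the rest. The log2 fold change of 1.156 (standard error 0.45, 95% interval 0.12 to 2.19) had edgeR unadjusted p = 0.0328 and adjusted p = 0.268, and DESeq2 adjusted p = 0.191. Without Mdivi-1 replicate 1 it was 0.70 with an edgeR unadjusted p of 0.269, so that its unadjusted p under 0.05 rested on that library, and without control replicate 1 it was 0.86 with an unadjusted p of 0.110. Per kb of exon, *Cdkn1a* stood to *Btg2* at 2.16 and 1.37 in control and at 0.41 and 0.47 in treated embryos, so that the order of their levels turned over between the groups. This ratio was formed after the values had been seen and was not tested. *Zmat3* (ENSMUSG00000027663, chr3:32334792-32366014, minus strand) was weakly expressed, from 32, 42, 29 and 58 raw counts, at 1.46 and 2.76 CPM in control libraries and 1.56 and 3.02 CPM with Mdivi-1. Each group had a low and a high library, and the log2 fold change of 0.12 had a standard error of 1.27.

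**Figure D2:**
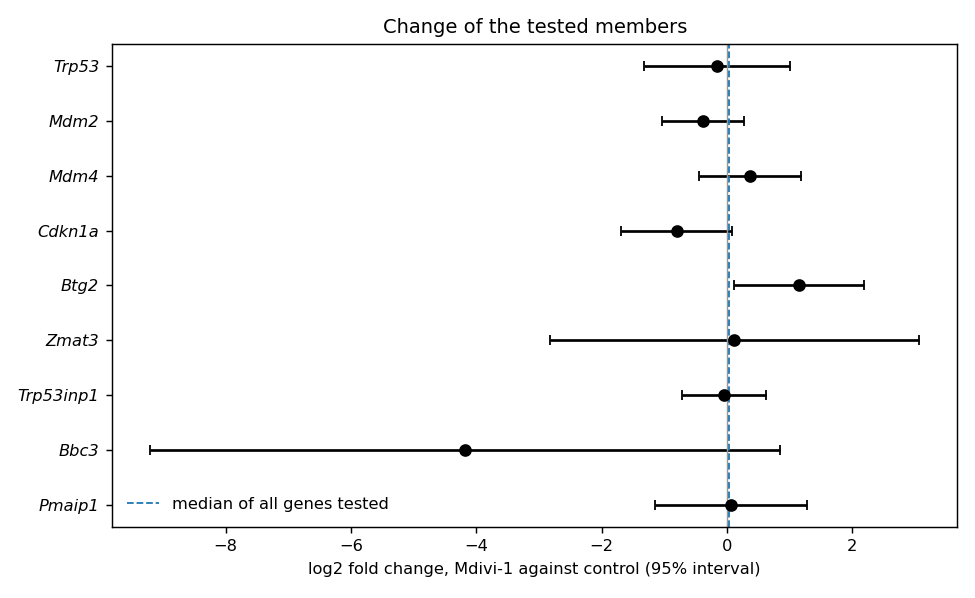
Log2 fold change (x axis) of Mdivi-1-treated against control embryos for the 9 tested members (y axis), as points with 95% intervals from edgeR, and the median of all genes tested as a dashed line at 0.03. The interval of *Btg2* (0.12 to 2.19) alone leaves out 0, and those of *Bbc3* and *Zmat3* are the widest.

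The targets of survival signalling and autophagy showed no difference that these libraries could resolve. *Trp53inp1* (ENSMUSG00000028211, chr4:11156431-11174379, plus strand) encodes a nuclear protein that promotes p53 activity and autophagy. It had 161 and 174 CPM in control libraries and 182 and 144 CPM with Mdivi-1. The treated libraries lay on either side of the controls. The log2 fold change was -0.04 (standard error 0.29), and its 95% interval from -0.72 to 0.63 was the second narrowest of the members after that of *Mdm2* and left out 2-fold changes in either direction. *Phlda3* (ENSMUSG00000041801, chr1:135766119-135769136, plus strand) had 0, 0, 0 and 14 counts in control replicates 1 and 2 and Mdivi-1 replicates 1 and 2. It was counted in 1 treated library only and was left out of the test, and a count of 0 allows up to 3 counts in a library. With 14 counts in that library, the level of *Phlda3* there was 0.73 CPM after TMM normalization, which adjusts the total of 18500928 counts.

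Neither of the BH3-only genes passed the test, and the difference between them was not tested. *Bbc3* (ENSMUSG00000002083, chr7:16308393-16318205, plus strand), which encodes PUMA, had 34 and 39 raw counts in control and 4 and 0 in Mdivi-1-treated embryos. These counts equal 1.55 and 2.56 CPM against 0.21 and 0 CPM, so that both treated libraries were lower than both controls, which were themselves low. The log2 fold change was -4.18 (standard error 2.17, 95% interval -9.20 to 0.85), with edgeR adjusted p = 0.392 and DESeq2 adjusted p = 0.283. *Pmaip1* (ENSMUSG00000024521, chr18:66458533-66465565, plus strand), which encodes NOXA, had 15.3 and 19.95 CPM in control libraries and 25.6 and 11.3 CPM with Mdivi-1. The highest and the lowest values were both of treated libraries, so that the groups overlapped. With a log2 fold change of 0.06, its standard error was 0.52 (edgeR adjusted p = 0.977, DESeq2 adjusted p = 0.989), and leaving out Mdivi-1 replicate 1 (-0.65) or control replicate 1 (-0.12) made it negative, while it was 0.52 with Mdivi-1 replicate 2 left out.

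The members differed widely in length-scaled level. Levels of different genes were set side by side as CPM per kb of exon, with the union of annotated exons as length, so that a gene of which only short transcripts are made is understated. In the controls the order of mean levels was *Mdm4* (147), *Mdm2* (29.9), *Trp53inp1* (25.9), *Cdkn1a* (11.3), *Btg2* (6.72), *Pmaip1* (6.46), *Trp53* (3.70), *Bbc3* (0.97), *Zmat3* (0.18) and *Phlda3* (0). Of these neighbours, *Btg2* and *Pmaip1* overlapped between the control libraries and the others did not. In Mdivi-1-treated embryos the order was *Mdm4* (191), *Trp53inp1* (25.1), *Mdm2* (22.9), *Btg2* (14.96), *Pmaip1* (6.75), *Cdkn1a* (6.47), *Trp53* (3.33), *Phlda3* (0.23), *Zmat3* (0.20) and *Bbc3* (0.05). There *Trp53inp1* and *Mdm2*, and *Pmaip1* and *Cdkn1a*, overlapped between libraries, as did *Phlda3* with *Zmat3*. *Mdm4* was in the top 2.60% of genes tested by length-scaled level in the controls and the top 1.66% in treated embryos, and *Trp53* in the top 41.4% and 44.5%. *Mdm4* alone made up 81.0% to 90.0% of the summed CPM of the 10 members in each library. The summed CPM of the 8 targets, *Mdm2* included, was 386 and 414 in control and 411 and 317 in treated embryos, which overlapped.

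**Figure D3:**
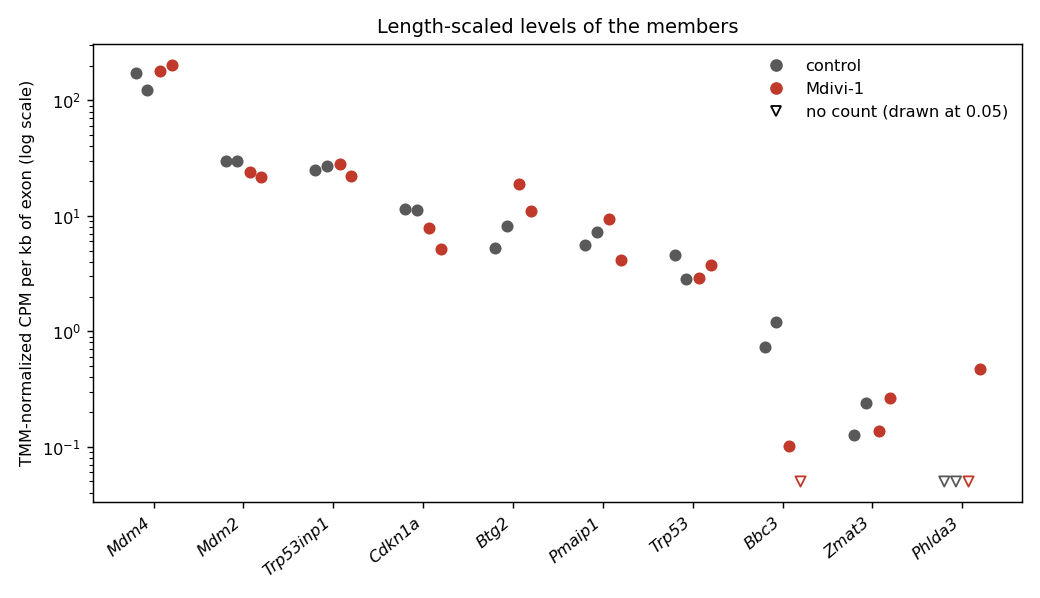
TMM-normalized CPM per kb of exon (y axis, log scale) of the members, ordered by their control mean, in each library (grey control, red Mdivi-1). Open triangles mark libraries with no count, and *Mdm4* (123 to 203) lies above all other members in each library.

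In the wider p53 pathway, 87 genes of 4 lists were tested, of which 41 were positive and 46 negative by log2 fold change (median -0.04). At an unadjusted p under 0.05, 4 were higher and 9 lower, or 14.9% in all, beside 15.9% of all genes tested, and 0 passed edgeR's adjusted threshold. Of 17 further targets in the cell cycle and DNA repair, 9 were positive and 8 negative by log2 fold change (median 0.17), and 0 had an unadjusted p under 0.05 by edgeR or an adjusted p under 0.05 by DESeq2. The smallest p was that of *Ccng1*, which encodes cyclin G1, at 13.2 and 18.4 CPM in control libraries and 27.3 and 30.7 CPM with Mdivi-1 (log2 fold change 0.87, edgeR unadjusted p = 0.0688). *Rrm2b*, the p53-inducible subunit of ribonucleotide reductase, had a log2 fold change of 0.49, and *Rad51c*, of homologous recombination, and *Polh*, a translesion polymerase, had -1.24 and -0.47. Of 17 targets in apoptosis and survival, 9 were positive and 8 negative by log2 fold change (median 0.03), with 0 higher and 2 lower (11.8%, beside 7.64% of all genes tested) at an unadjusted p under 0.05. *Casp6*, an effector caspase, had 14.3 and 24.2 CPM in control libraries and 2.79 and 2.81 CPM with Mdivi-1. It was well below both controls in both treated libraries (log2 fold change -2.78 with standard error 0.60, and edgeR adjusted p = 0.151), and DESeq2 called it lower with adjusted p = 0.00366. *Ei24*, an ER membrane protein of autophagy, had 79.8 and 65.7 against 45.4 and 42.1 CPM (log2 fold change -0.73), *Aen*, an apoptosis nuclease, had a log2 fold change of -0.86, and *Triap1*, a mitochondrial inhibitor of apoptosis, had -0.81. *Bax*, the mitochondrial pore protein that BH3-only proteins activate, had a log2 fold change of -1.17 with edgeR unadjusted p = 0.158, and was named after its value was seen. In 6 of these 17 targets both treated libraries lay below both controls, beside 23.9% of all genes tested. In 4 both lay above, beside 26.1%. These 4, also named after their values were seen, were *Fas* (log2 fold change 2.38), *Siva1* (0.45), *Pidd1* (0.42) and *Apaf1* (0.17).

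Targets in metabolism, secretion and other roles had 9 positive and 7 negative log2 fold changes among 16 tested genes (median 0.29), with 2 higher (12.5%, beside 8.27% of all genes tested) at an unadjusted p under 0.05. These were *Abhd4*, a lipase (log2 fold change 2.23, with 13.2 and 1.31 CPM in control libraries and 39.2 and 29.5 CPM with Mdivi-1), and *Hspa4l*, a chaperone (1.08, edgeR adjusted p = 0.249). *Prkab1*, a subunit of AMPK, and *Pltp*, a phospholipid transfer protein, had -0.81 and -1.09. The median of this list changed sign without Mdivi-1 replicate 2 (-0.15) and without control replicate 2 (-0.43), and was 1.36 without control replicate 1. Of 37 genes of p53 feedback and regulation, 14 were positive and 23 negative by log2 fold change (median -0.37), with 2 higher (5.41%, beside 8.27% of all genes tested) and 7 lower (18.9%, beside 7.64%) at an unadjusted p under 0.05. DESeq2 called 4 of the 37 (10.8%, beside 5.98% of all genes), all lower, namely *Hipk1*, a kinase that acts on p53, at 381 and 273 CPM in control libraries and 152 and 159 CPM with Mdivi-1 (log2 fold change -1.07, DESeq2 adjusted p = 0.0190), and *Rpl11* (-1.28), *Rpl5* (-1.20) and *Rps7* (-1.01). The last 3, with *Rpl23* (-0.91), are ribosomal proteins known to bind MDM2 when ribosome assembly fails, and belong to the 78 cytosolic ribosomal protein genes above, of which 57 (73.1%, beside 7.64% of all genes) were lower at an unadjusted p under 0.05. Ribosomal proteins thus made up most of the 7 lower genes and most of the 4 that DESeq2 called. The shares of this list were not formed without them. The other genes with an unadjusted p under 0.05 were *Prkdc* (-1.03), the DNA-dependent protein kinase, and *Usp10* (-0.87), a deubiquitinase of p53, on the lower side, and *Chek1* (0.71), a checkpoint kinase, and *Trp53inp2* (1.01), an autophagy protein, on the higher side. *Trp53inp2* had 50.7 and 52.1 CPM in control libraries and 103 and 104 CPM with Mdivi-1, with edgeR adjusted p = 0.199 and DESeq2 adjusted p = 0.0716. *Prkdc*, *Usp10*, *Rps7*, *Rpl23* and *Chek1* fall outside the rule for named genes and were named after their values were seen. *Trp63*, which encodes the p53 relative p63, had 1.32 and 1.18 CPM in control libraries and 6.76 and 3.60 CPM with Mdivi-1 (log2 fold change 2.04, edgeR unadjusted p = 0.0967), and was also named after its values were seen.

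**Figure D4:**
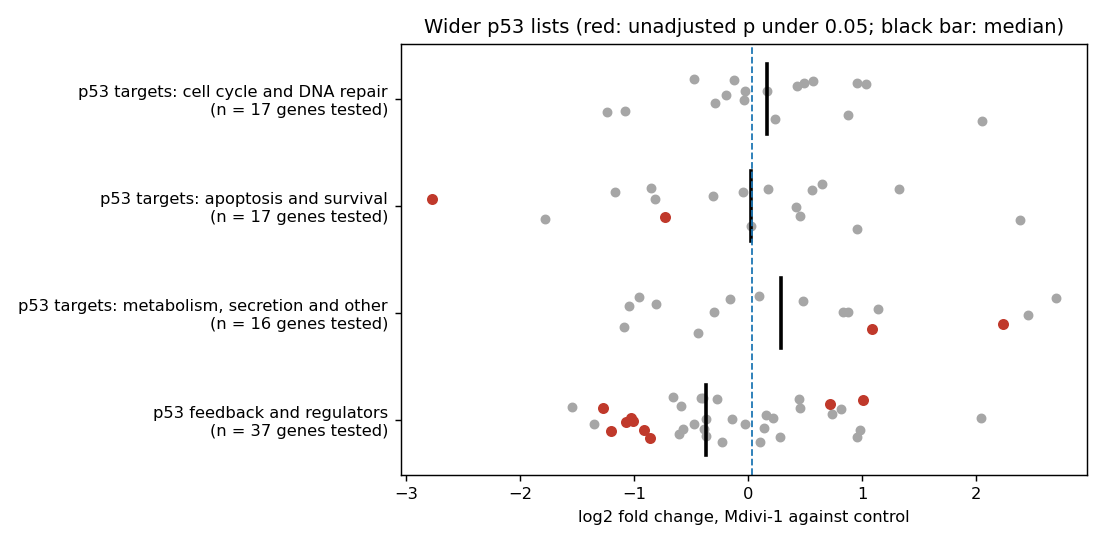
Log2 fold change (x axis) of each tested gene (dots) in 4 lists of the p53 pathway (y axis, with the number of genes tested), in red where the unadjusted edgeR p was under 0.05, with black bars at the list medians of 0.17, 0.03, 0.29 and -0.37 from top to bottom. The dashed line is the median of all genes tested, and 13 of the 87 dots are red.

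Among 54 genes of these lists with at least 10 CPM, those nearest to *Trp53* over the 4 libraries by the root mean square difference of centred log2 CPM were *Plk3* (0.09), *Sesn1* (0.19) and *Ppm1d* (0.21). *Plk3* is a polo-like kinase, *Sesn1* a sestrin of the stress response and *Ppm1d* the phosphatase WIP1, and each was highest in control replicate 1, as *Trp53* was. Those nearest to *Cdkn1a* were *Sirt1* (0.15), a deacetylase of p53, *Ei24* (0.20) and *Polh* (0.20), in which both treated libraries lay below both controls. With 4 libraries such likeness is a description.

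*Mdm2*, *Mdm4*, *Cdkn1a*, *Bbc3* and *Btg2* kept the sign of their log2 fold change in all 12 alternative settings, which left out each library in turn or changed the filter, scaling, test or block, and *Trp53*, *Zmat3*, *Trp53inp1* and *Pmaip1* changed it in at least 1. The former are the 5 members whose groups do not overlap, beside 50.0% of all genes tested, which fixes their sign when a library is left out. Over all 12, *Cdkn1a* ranged from -1.14 without Mdivi-1 replicate 1 to -0.55 without Mdivi-1 replicate 2, and *Mdm2* from -0.47 without Mdivi-1 replicate 1 to -0.27 with library totals. *Mdm4* was 0.13 with control replicate 2 left out. With control replicate 1 left out *Mdm4* was 0.63 and took the place of *Btg2* as the 1 member with an unadjusted p under 0.05 (0.0245 by edgeR, with adjusted p = 0.170, and 0.0199 by DESeq2). The lowest adjusted p of any member over these alternatives was 0.138, for *Btg2* without a filter on low counts.

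**Figure D5:**
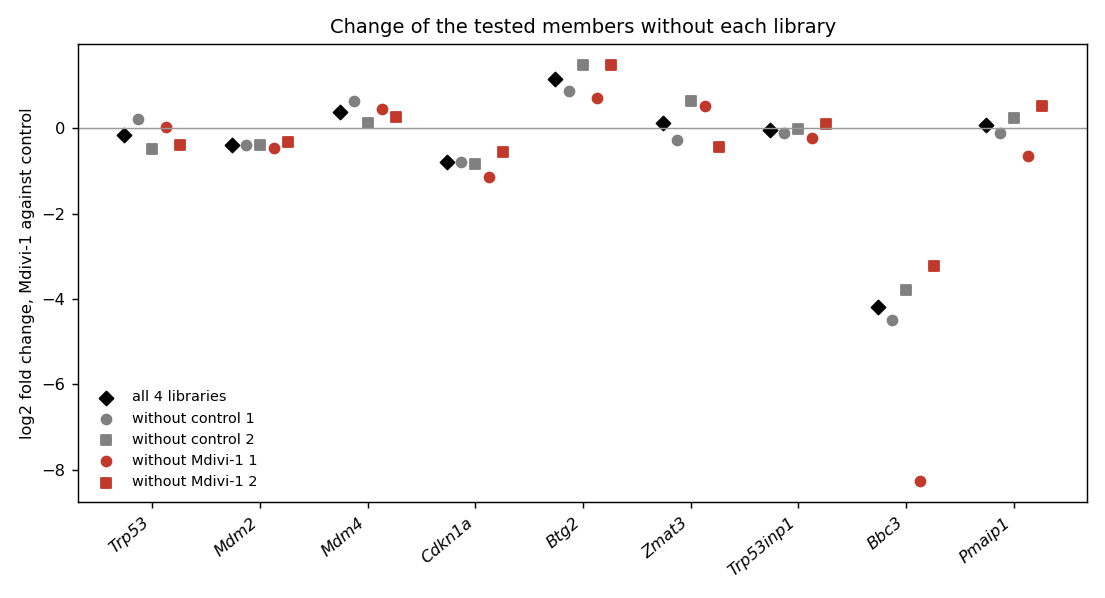
Log2 fold change (y axis) of the 9 tested members (x axis) with all 4 libraries (black) and without each control (grey) or Mdivi-1-treated library (red). *Mdm2* moves least (-0.47 to -0.33), and *Bbc3* moves most (-8.28 to -3.24), when a library is left out, and *Bbc3* had no count in 1 treated library.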

How the data were processed

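The 10 members and all gene lists were chosen with earlier results of these data known. For reads that the authors had trimmed by cutadapt 1.16, STAR gave the mapping and, by its GeneCounts setting, the number of unique reads in the exons of each gene. The submitters' notes name mm10. The raw counts per gene and library that they deposited were used here. The deposited table also holds a signal (counts divided by 1 size factor per library) and, from the authors' DESeq2 comparison, log2 fold changes, a Wald score and p-values, none of which was used. Smart-Seq2 keeps neither strand nor molecular tags, so that reads of overlapping genes cannot be told apart by strand and may be lost. Of the members only *Cdkn1a* shares exon bases (7.7%) with another gene, on the opposite strand. Gene starts and ends in the table matched GENCODE M21 for 614 of 25995 genes, so that coordinates, exon lengths and builds are those of GENCODE M21 on GRCm38.

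Genes were kept by filterByExpr (minimum count 10), normalized by TMM and tested with edgeR 4.0.16's quasi-likelihood test in R 4.3.3, two-sided, with Benjamini-Hochberg adjustment over 14259 genes. Standard errors and 95% intervals were worked back from this test. DESeq2 1.42.0 and limma 3.58.1 (voom) were run on the same genes. The scripts were tested on simulated counts. Genes were named by a rule: all members, up to 4 genes per wider list with the smallest p at 10 CPM or more, the 3 genes nearest to *Trp53* and to *Cdkn1a*, and *Dnm1l*. *Dux* was not found in the table by symbol. The sequences of promoters without a RefSeq entry were not analysed here.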

Additional observations from a re-analysis of the deposited data

How the results depend on the processing

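The number of genes called at an adjusted p of 0.05, 0 by edgeR's quasi-likelihood test (2268 at an unadjusted p under 0.05), was 819 without a low-count filter, 853 by DESeq2, 870 by the edgeR likelihood ratio test and 202 by limma-voom, and 0 to 803 when a library was left out (803 without control replicate 1, 380 without control replicate 2, and 4 when Mdivi-1 replicate 2 was omitted). The cause was not tested. The number of members called stayed at 0 in all of these. At an unadjusted p under 0.05 it was 1 by the quasi-likelihood test (*Btg2*) and 2 by the likelihood ratio test (*Btg2* and *Bbc3*). By DESeq2 without a low-count filter, *Btg2* (unadjusted p = 0.0272) and *Bbc3* (0.0491) were both under this threshold.

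Scaling by library totals moved the median of all genes by 0.11, and gave *Trp53inp1* a log2 fold change of 0.0804 and the regulators a median of -0.14. Leaving out a library gave -0.48 to 0.22 for *Trp53*, -0.45 to 0.63 for *Zmat3*, -0.23 to 0.094 for *Trp53inp1* and -0.65 to 0.52 for *Pmaip1*, which was -0.026 by limma-voom. List medians ranged from -0.0776 to 0.25 (cell cycle), -0.36 to 0.22 (apoptosis), -0.43 to 1.36 (metabolism) and -0.41 to -0.33 (regulators). That of metabolism was -0.32 at 1 CPM in 2 libraries.

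The labels give both groups replicates 1 and 2. The differences between replicates 1 and 2 did not correlate between the groups (Pearson's r = 0.00809 across genes). This does not show whether samples of the same number were collected or processed together, since differences private to each library could hide it. With the replicate block 0 genes were called and *Pmaip1* had -0.0394. With 2 libraries a group, intervals were wide, and *Bbc3*, *Zmat3* and *Phlda3* were limited by low counts, the cause of which was not tested.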
